A study of Caenorhabditis elegans with 24 samples.

Results

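The siRNA differences described here ask whether the change left behind by 6 warm generations was the same in animals with and without the nuclear Argonaute HRDE-1. For each gene the lasting change was the mean log2(RPKM + 1) of siRNA in the 3 generations after the return to 15 °C (p15C-G1 to G3) minus that in the 3 generations before the heat (15C-G1 to G3). The quantity of interest was the lasting change in hrde-1 minus the lasting change in WT, so that a positive value means that siRNA went up more, or down less, in the mutant. RPKM are reads antisense to an mRNA per kilobase of exon and per 1e6 reads. Of the 20167 genes in the table, 6512 averaged 20 RPKM or more across the 12 libraries of this contrast (of 24 in the series) and were tested.

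WT was the strain N2, and the mutant was hrde-1 (tm1200), a deletion allele. Each genotype was followed as 1 lineage through 3 generations at 15 °C, 6 at 23 °C and 3 again at 15 °C. There was 1 small RNA library per genotype and generation, made from whole young adults grown on NGM plates with OP50. Collection was 114 to 120 h after L1 release in the 15 °C generations, and 50 to 55 h in the 23 °C generations. The 4 groups compared, WT_15C, WT_p15C, hrde-1_15C and hrde-1_p15C, were therefore at the same temperature and age when collected, and n = 3 successive generations in each. In p15C-G1 the shift began only at the embryo step, by the study's methods, so that its parents were grown at 23 °C. The study left 23C-G1, shifted at the same step, out of its mRNA comparison of temperatures, while p15C-G1 is kept here. Successive generations of 1 lineage are not separate cultures, so that all p-values measure only the spread between generations.

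In C. elegans, RNA-dependent RNA polymerases copy target mRNAs into abundant antisense 22G-type siRNAs, which are loaded onto worm-specific Argonautes. HRDE-1 is the Argonaute that carries such siRNAs into germline nuclei, where it recruits factors that slow transcription and help place repressive histone marks. Silencing of this kind can be passed to progeny through the germline, and nuclear RNAi mutants become sterile over generations in the warm. The readout here is the siRNA itself, not the mRNA it matches.

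The total reads implied by the spacing of low values ranged from 369400 to 502400 in WT_15C, 584100 to 1043000 in WT_p15C, 509500 to 771200 in hrde-1_15C and 626200 to 690000 in hrde-1_p15C. No value was 0, and the spacing of low values places every gene at 1 read or more, so that genes with few siRNAs sit on a floor that is lower in deeper libraries. The correlation across genes of log2 values between generations of a group was 0.88 to 0.96, and lowest in hrde-1_15C. Over all tested genes the median lasting change was 0.12 in WT and 0.00 in hrde-1, and the median difference was -0.13. With median-ratio scaling of the libraries the median difference was -0.01, so that differences are best read against -0.13.

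siRNA matching hrde-1 itself separated the genotypes in every library. In WT its values were 278, 301 and 321 RPKM at 15C and 293, 268 and 299 RPKM at p15C. In hrde-1 they were 147, 149.6 and 164 RPKM at 15C and 142, 142 and 119 RPKM at p15C. No mutant library reached the lowest WT library, and the lasting change did not differ between genotypes by the test (difference -0.13 ± 0.16 on the log2 scale, SE, limma adjusted p = 0.77).

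The lasting change differed between genotypes at 220 genes, of which 120 were higher and 100 lower in hrde-1 relative to WT. The call asked for a limma adjusted p of at most 0.1 and a difference of at least 2-fold, and it was met by 1.84% of tested genes in the higher and 1.54% in the lower direction, 3.38% together. An unadjusted p under 0.05 was found at 863 genes, or 13.3% of those tested. The 120 higher genes had a median difference of 1.83 log2 units (1.00 to 5.86), made up of a median change of 1.42 in hrde-1 and -0.42 in WT. The 100 lower genes had a median difference of -1.75 (-4.01 to -1.003), made up of -1.27 in hrde-1 and 0.51 in WT. With values in whole animals, fewer cells of a type and less siRNA per cell cannot be told apart.

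Most called genes, 127 of 220, also passed the test for a lasting change in hrde-1, and 61 passed it in WT. Among the 120 higher genes, 64 passed the same test for a rise in hrde-1 and not in WT, 23 passed for a fall in WT and not in hrde-1, 3 rose in hrde-1 and fell in WT, and 4 rose in both but more in hrde-1. The other 26 passed in neither genotype alone. Among the 100 lower genes, by the same tests, 52 fell in hrde-1 only and 27 rose in WT only. Another 3 fell in hrde-1 and rose in WT, 1 fell in both but more in hrde-1, and 17 passed in neither alone. All 3 hrde-1 p15C libraries lay above all 3 hrde-1 15C libraries at 98 of the 120 higher genes (10.8% of all tested genes), and below them at 73 of the 100 lower genes (10.3% of all tested genes). In WT, the p15C libraries all lay below the 15C libraries at 57 of the higher genes (9.23% of all tested), and above them at 50 of the lower genes (18.8% of all tested). The same libraries chose these genes, so that such separation is largely built into the choice and the counts are only a description.

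**Figure D1:**
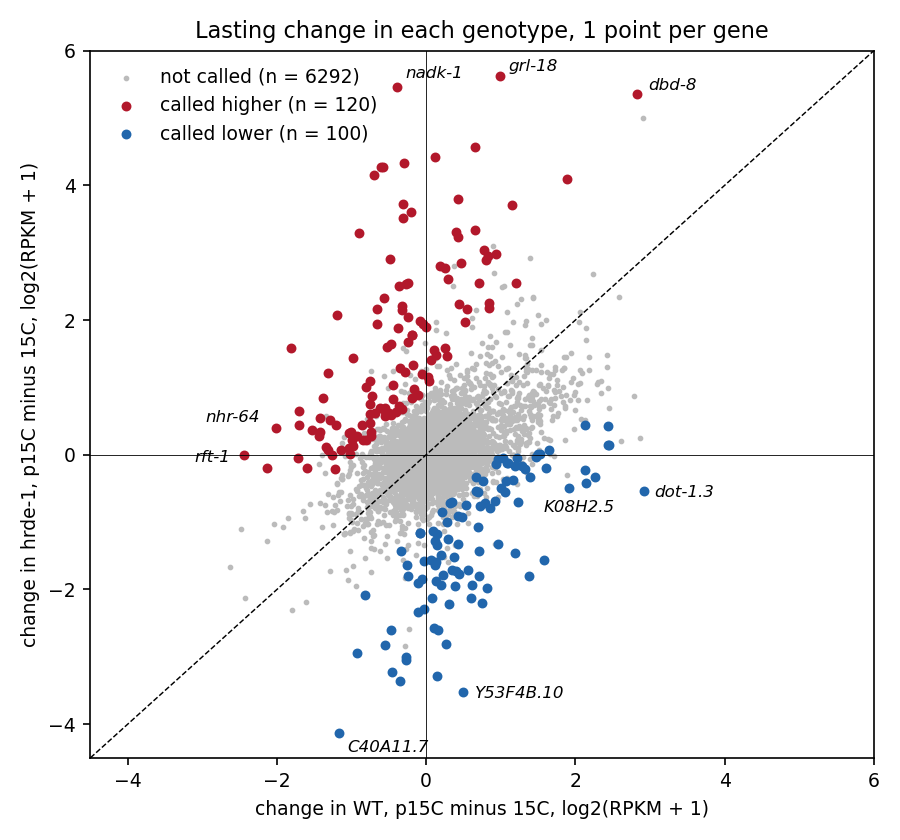
Lasting change in WT (x axis) against lasting change in hrde-1 (y axis), both as p15C minus 15C in log2(RPKM + 1), 1 point per tested gene, with the dashed line marking equal change. Most of the 120 genes called higher (red) spread upwards near a WT change of 0 and most of the 100 called lower (blue) spread downwards, while smaller groups spread to the left and right near a hrde-1 change of 0.

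Tested within each genotype, the lasting change was called at 258 genes in WT and 255 in hrde-1. In WT, siRNA rose at 186 genes (2.86% of those tested) and fell at 72 (1.11%), 3.96% in all. In hrde-1 it rose at 149 (2.29%) and fell at 106 (1.63%), 3.92% in all. A rise in both was called at 33 genes, which are 17.7% of the WT genes and 22.1% of the hrde-1 genes, and a fall in both at 8 genes, 11.1% and 7.55% of each list. The WT counts rest on few libraries: without WT p15C-G1 they were 74 and 32, without WT p15C-G2 the higher count was 122, and without WT 15C-G1 the lower count was 35. Without hrde-1 15C-G3 the hrde-1 counts were 227 and 180.

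Before the heat, 132 of the 220 called genes differed at least 2-fold in level between genotypes and 88 did not. Of the 100 lower genes, 55 had siRNA at least 2-fold above WT in the mutant at 15C (8.63% of all tested genes), 35 were within 2-fold (84.1% of all) and 10 were at least 2-fold below (7.23% of all). The levels used here also enter the contrast that chose these genes, so that the shares are a description. After the heat, 27 were above, 35 within and 38 below, and 24 had gone from above to within. Of the 120 higher genes, 27 were above WT, 53 within and 40 below at 15C, and 77, 37 and 6 at p15C. The largest single path was from within to above, taken by 40 of the higher genes, beside 24 that went from below to within and 10 that crossed from below to above. Of all tested genes, 80.2% were within 2-fold of WT both before and after.

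The 12 libraries at 23 °C did not enter the contrast and show when the difference between genotypes shifted. The step from 15C-G3 to 23C-G1 is also a change of temperature and collection age. The median difference in level (hrde-1 minus WT, log2) over the 120 higher genes was -0.36, -0.19 and -0.09 in the 3 generations before heat, then 0.21, 0.35, 0.64, 0.67, 1.03 and 1.11 over 23C-G1 to G6, and 1.80, 1.56 and 1.51 after the return. For the 100 lower genes it was 1.24, 1.28 and 1.60 before heat, 0.39, 0.11, -0.03, 0.02, -0.19 and -0.24 at 23 °C, and -0.45, -0.35 and -0.24 after it. Over all tested genes it stayed between -0.04 and 0.17. At the lower genes pooled, the WT median was 31.8 RPKM at 15C-G3, 45.4 at 23C-G1 and 58.8 at 23C-G2. Over 23C-G3 to G6 it was between 43.1 and 51.5 RPKM. The early WT rise was not shared by all classes, which the 15C libraries helped to set. At the 27 genes that passed only in WT, the WT median was 12.3, 35.7 and 54.9 RPKM at 15C-G3, 23C-G1 and 23C-G2. At the 52 that passed only in hrde-1, the WT median was 47.6, 39.8 and 48.3 RPKM. The mutant median over the 100 lower genes was 122.9 RPKM at 15C-G3 and still 117.0 and 97.7 RPKM at 23C-G1 and G2. It was then 68.1 at G3, 46.98 at G4 and between 38.1 and 48.5 RPKM in the 5 generations after that. At the higher genes the mutant median was larger in each warm generation than in the one before, from 41.5 RPKM at 15C-G3 to 81.2 at 23C-G1 and 173 RPKM at 23C-G6, and it was 155 RPKM at p15C-G3.

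**Figure D2:**
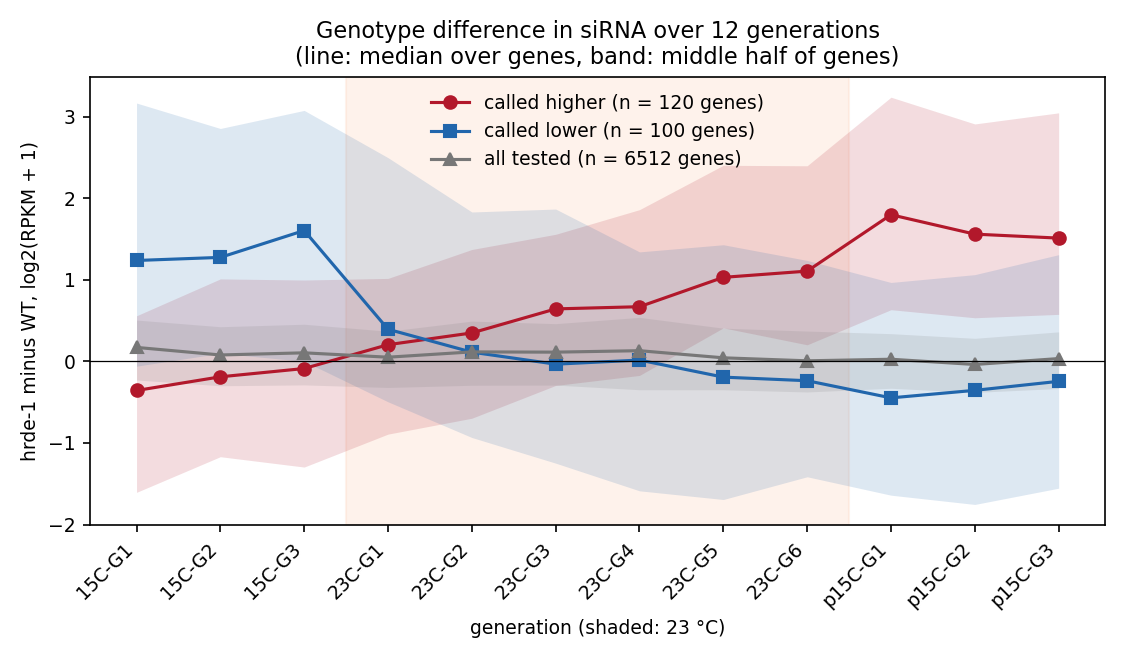
Difference in siRNA level between hrde-1 and WT (log2 of RPKM + 1) in each of the 12 generations, with the 23 °C generations shaded. Lines are medians over the 120 genes called higher, the 100 called lower and all 6512 tested genes, and bands hold the middle 50% of genes, and the red line climbs from -0.36 to 1.51 while the blue line drops from 1.24 to -0.24.

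On other libraries of the same lineages, the change from the early (23C-G1 to G3) to the late (23C-G4 to G6) warm generations was compared between genotypes. These generations lie between those that chose the genes, so that a matching sign is a description and not independent support. The sign matched that of the lasting difference at 113 of the 120 higher genes, where 46.1% of all tested genes were positive, and at 84 of the 100 lower genes, where 53.9% of all were negative. The early to late difference was at least 2-fold at 41 of the higher genes (2.00% of all tested genes) and at 33 of the lower genes (2.07% of all). Gene by gene, limma called 2 genes higher (0.0307%) and 0 lower, with 385 genes, or 5.91%, at an unadjusted p under 0.05. Those 2 were dlk-1, a MAP kinase kinase kinase of axon regeneration (1.42 ± 0.23, adjusted p = 0.093), and fat-2, a fatty acid desaturase (1.78 ± 0.28, adjusted p = 0.093), both also called higher in the lasting change and both named after their values were seen. Neither count was stable: when 23C-G3 of hrde-1 was left out 10 genes were called higher and 9 lower, and leaving out most other libraries left 0 or 1 higher.

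The largest difference was at nadk-1, an NAD kinase gene (chromosome IV, 1457075 to 1459521 in WBcel235). In hrde-1 its siRNA measured 3.53, 6.16 and 5.09 RPKM at 15C and 436, 277 and 140.1 RPKM at p15C. In WT it measured 181, 210.4 and 152 RPKM at 15C and 108, 166 and 143 RPKM at p15C. The mutant started far below WT, measured more in each warm generation than in the last (41, 175, 297, 514, 566 and 644 RPKM at 23C-G1 to G6) and was back near the WT level by p15C-G3. The difference was 5.86 ± 0.47 (adjusted p = 3.53e-05), with a lasting change of 5.47 ± 0.34 in hrde-1 and -0.39 ± 0.34 in WT.

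grl-18, a ground-like gene of the hedgehog-related family (chromosome V, 5485631 to 5488866), started low in both genotypes and rose in the mutant. Its hrde-1 values were 4.48, 11.7 and 9.69 RPKM at 15C, 14, 27.4, 45.2, 94.9, 197 and 284 RPKM at 23 °C, and 567, 422 and 377 RPKM at p15C. WT values were 4.46, 2.02 and 4.66 RPKM at 15C, and at p15C they averaged 9.17 ± 6.39 RPKM (SD, n = 3) with the highest at p15C-G2. All 3 mutant libraries after the return lay above every other library, and the difference was 4.64 ± 0.63 (adjusted p = 0.0015). No other of the 5 tested hedgehog-related genes was called. Y47A7.2 went from 11.6, 5.08 and 5.03 RPKM to 84.3, 215 and 143 RPKM in hrde-1, against 43.8, 31.5 and 32.3 to 22.1, 22.3 and 20.1 RPKM in WT (difference 4.86 ± 0.48, adjusted p = 0.00018), so that its order between genotypes turned over. Y38F2AR.12 went from 1.26, 3.85 and 2.91 to 46.7, 54.2 and 43.5 RPKM in hrde-1, yet stayed below WT, which measured 88.7, 89.6 and 91.8 RPKM before and 132, 125 and 108 RPKM after (difference 3.38 ± 0.33, adjusted p = 0.00018).

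**Figure D3:**
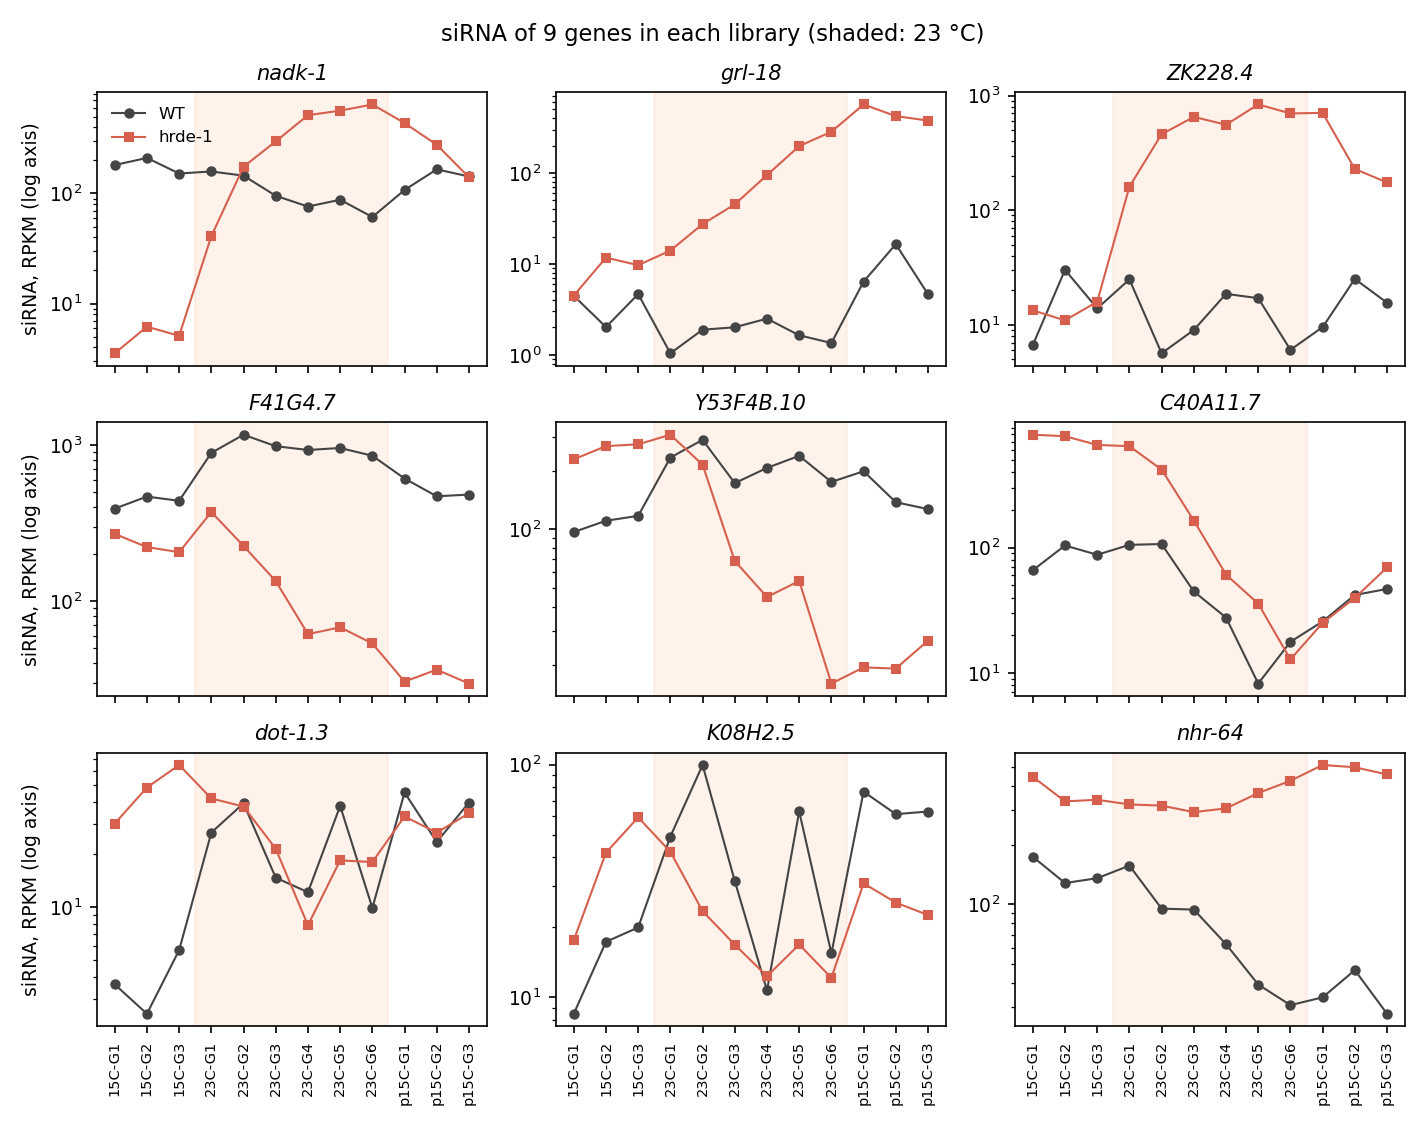
siRNA in RPKM (log axis) of 9 named genes in each of the 24 libraries, WT as grey circles and hrde-1 as red squares, with the 23 °C generations shaded. In nadk-1, grl-18 and ZK228.4 the mutant rises, then declines from p15C-G1 to G3 but is still above its level before the heat. In F41G4.7, Y53F4B.10 and C40A11.7 the mutant falls, and in dot-1.3, K08H2.5 and nhr-64 the larger change is in WT.

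ZK228.1, ZK228.10 and ZK228.4, neighbours on chromosome V (18444418 to 18465426), rose together in the mutant. ZK228.4 measured 13.4, 10.9 and 15.9 RPKM at 15C in hrde-1, 161, 460.2, 652, 557, 836 and 699 RPKM at 23 °C and 706, 229 and 175 RPKM at p15C. WT stayed at 6.66, 30.2 and 13.9 RPKM before and 9.55, 25.1 and 15.6 RPKM after, so that the mutant lay above WT in every library from the first warm generation on. The difference was 4.30 ± 0.78 (adjusted p = 0.0099) for ZK228.4, 3.81 ± 0.40 (0.00027) for ZK228.1 and 3.91 ± 0.37 (0.00017) for ZK228.10. In ZK228.10 the WT libraries at 15C were at the read floor, and with the floor subtracted its difference was 2.25 (adjusted p = 0.12).

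F-box genes, which encode adaptors of ubiquitin ligases and form a large, fast-changing family in worms, held calls in both directions. Of 107 tested, 4 were higher (fbxa-60, fbxa-59, fbxa-55 and fbxa-58) and 3 lower (fbxa-52, fbxa-192 and fbxa-194), 6.54% against 3.38% of all tested genes, with a median difference of -0.14. fbxa-55, fbxa-59 and fbxa-60 lie side by side on chromosome III (933422 to 946300). fbxa-60 measured 54.6, 67.1 and 78.1 RPKM at 15C and 418, 339.9 and 381 RPKM at p15C in hrde-1, where all libraries after lay above all before. In WT it measured 265, 256 and 248 RPKM before heat, 23.1 to 65.3 RPKM at 23 °C and 106, 287 and 258 RPKM after, so that WT was lowest in the warm and back at its earlier level by p15C-G2. The difference was 2.87 ± 0.41 (adjusted p = 0.0022), and 2.53 ± 0.46 and 2.28 ± 0.45 for fbxa-59 and fbxa-55. fbxa-58, named after its values were seen, lies elsewhere on the same chromosome and differed by 1.64 ± 0.40 (adjusted p = 0.045). The authors' counting of reads with several matches is not stated, and values of near-identical F-box genes are uncertain for that reason.

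Some large differences were measured from the read floor, and their size is not an estimate. At 16 called genes, 13 higher and 3 lower, at least 1 of the 4 groups had all 3 libraries at the floor. Without them the median difference was 1.65 for the higher and -1.73 for the lower genes. In hrde-1_15C this held for epic-3, Y39A3CR.5, Y62E10A.18, Y48G9A.7 and F53G2.3. epic-3 measured 3.97, 5.19 and 3.43 RPKM there, 97.4 to 285 RPKM from 23C-G3 to G6 and 180.1, 101 and 52 RPKM at p15C, while WT libraries at 15C and p15C were all at the floor. Taking 3 reads per library as the limit at 15C, siRNA of epic-3 was at least 8.51-fold higher after the return in hrde-1, that of Y39A3CR.5 at least 8.72-fold, that of Y62E10A.18 at least 7.96-fold, that of Y48G9A.7 at least 5.69-fold and that of F53G2.3 at least 3.43-fold. F43C1.7 rose from 9.09, 5.94 and 3.93 to 101, 48.4 and 64.1 RPKM in hrde-1, while WT was at the floor after the return (5.19, 2.9 and 4.71 RPKM). F34D10.3 rose from 9.24, 12.1 and 31.9 to 164, 187 and 211 RPKM in hrde-1 and stayed between 3.19 and 8.17 RPKM in those phases of WT (difference 3.82 ± 0.61). With the floor subtracted its adjusted p was 0.15. gplb-1, a glycoprotein hormone beta subunit gene, went from 30, 26.2 and 8.64 to 135, 192 and 131 RPKM in hrde-1, and its difference of 3.39 ± 0.85 had an adjusted p of 0.052, which was 0.16 with the floor subtracted and up to 0.14 with 1 library left out (lost in 5 of 12).

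Genes repressed by nuclear RNAi in the warm made up 15 of the 100 lower calls. The study defined nuclear RNAi-repressed heat-inducible genes (NHGs) from mRNA of this experiment, so that the list is not independent evidence of a direction in hrde-1. Of 39 high-stringent NHGs in the table, 32 were tested and 15 were called lower (46.9%, against 1.54% of all tested genes), 0 higher, with a median difference of -0.86 beside -0.13 for all genes. A positive difference was found at 5 of them, the largest 0.73 ± 0.19 at Y77E11A.3. In hrde-1 alone 13 fell (1.63% of all tested genes) and 1 rose (2.29% of all). In WT 0 fell (1.11% of all) and 2 rose (2.86% of all). Among 32 genes, the WT counts and the 1 rise in hrde-1 are near those shares. Of the 16 tested NHGs in or next to LTR retrotransposons, 8 were called lower with a median of -0.99. These 16 are part of the 32, and their share of 50% is near the 46.9% of the whole list.

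Y53F4B.10 (chromosome II, 15002095 to 15003510) had the most negative difference among the NHGs and among all tested genes. In hrde-1 it measured 229.9, 269 and 275 RPKM at 15C, 308, 216, 68.7, 44.8, 54.2 and 16 RPKM at 23 °C, and 19.4, 19.2 and 26.7 RPKM at p15C. In WT it measured 96.9, 111 and 117 RPKM before and 199, 138 and 127 RPKM after. The mutant thus went from above every WT library of the same phase to below every one, with a difference of -4.01 ± 0.26 (adjusted p = 6.4e-06). C44B12.6 did the same, from 405, 457 and 541 to 50.4, 39.2 and 52.6 RPKM in hrde-1, beside 118, 94 and 93.5 to 119, 124 and 95.3 RPKM in WT (difference -3.42 ± 0.23, adjusted p = 6.4e-06).

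The cumulative NHGs are those whose mRNA the study found to build up over the warm generations of the mutant. F41G4.7, which the study places at a CER12 retrotransposon on X, measured 269.6, 222 and 206 RPKM at 15C in hrde-1 and 30.4, 36.3 and 29.6 RPKM at p15C. In WT it measured 392, 468 and 439.8 RPKM before, 855 to 1168 RPKM at 23 °C and 611, 469.9 and 482 RPKM after. The libraries of the mutant did not overlap between phases, and the difference was -3.07 ± 0.21 (adjusted p = 6.4e-06). C18D4.6 started at the same level in both genotypes, 109.8, 118 and 101 RPKM in hrde-1 and 114, 119 and 109.9 RPKM in WT. It ended at 24.6, 13.2 and 15.4 RPKM in hrde-1 and 158, 133 and 99.4 RPKM in WT (difference -2.77 ± 0.30, adjusted p = 0.00029). ZC15.3 (-2.14 ± 0.27) and F58H7.5 (-1.55 ± 0.16) were also called, the latter going from 1090, 993 and 894 to 364, 316 and 312 RPKM in hrde-1 at an even WT level. ZC15.10 missed the call at -0.80 ± 0.23 (adjusted p = 0.10), with values of 954, 829.8 and 648 RPKM before and 311, 424 and 409 RPKM after in hrde-1. F40D4.13 did not share the fall: it was already low in hrde-1 at 62.1, 54.2 and 45.6 RPKM and measured 77.9, 66.6 and 53.2 RPKM after, beside 486 to 678 RPKM in those phases of WT (difference 0.18 ± 0.25, adjusted p = 0.80).

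**Figure D4:**
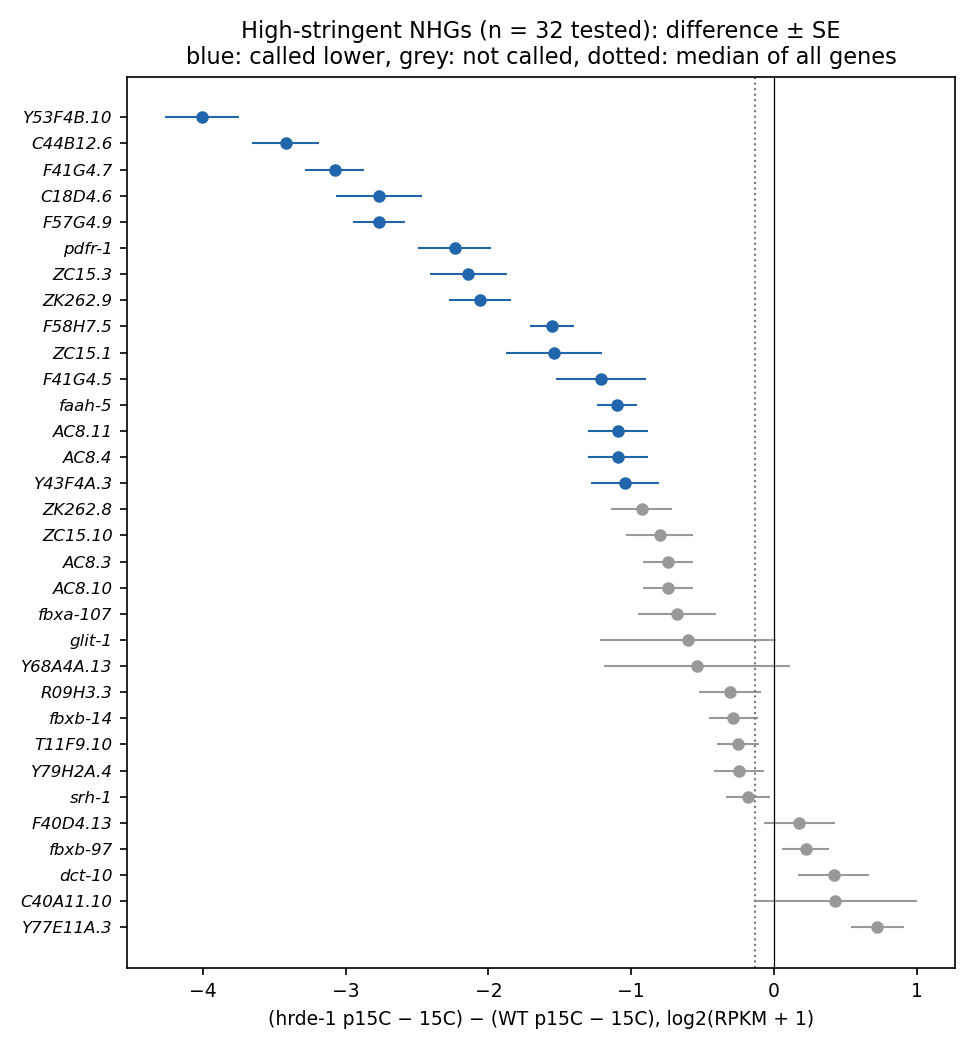
Difference between genotypes in the lasting change, in log2(RPKM + 1) with its SE, for the 32 tested high-stringent NHGs. The 15 called genes (blue) run from -4.01 at Y53F4B.10 to -1.04 at Y43F4A.3, the 17 others (grey) from -0.92 to 0.73, and the dotted line is the median of all tested genes.

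Other NHGs lost siRNA from different starting points. ZK262.9, at a CER8 element by the study's account, was below WT throughout and fell from 119, 107 and 149 to 39.5, 34.4 and 36.9 RPKM in hrde-1 (difference -2.06 ± 0.22, adjusted p = 0.00027). pdfr-1, the receptor of the PDF neuropeptides, began above WT and ended level with it: it went from 254, 230.0 and 225 to 39.9, 38.9 and 61.9 RPKM in hrde-1, beside 61.3, 53.2 and 47.7 to 44.7, 49.2 and 57 RPKM in WT (difference -2.24 ± 0.26, adjusted p = 0.00038). F57G4.9, F57G4.5 and F57G4.6, named after 1 clone on chromosome V, all fell in hrde-1. Only F57G4.9 of them is a high-stringent NHG. It went from 487, 404 and 417 to 54, 46 and 38.2 RPKM in hrde-1 (difference -2.77 ± 0.18, adjusted p = 6.4e-06). In WT it was also lower after the heat, at 791, 751 and 698 RPKM before and 531, 553 and 543 RPKM after, which was not called. F57G4.5 fell by -2.73 ± 0.30 and F57G4.6 by -2.13 ± 0.26 relative to WT. The F-box gene fbxa-192 of that clone was called lower (-1.93 ± 0.31, adjusted p = 0.0051) through WT, where it rose from 57.7, 40.4 and 43.1 to 127, 112 and 94.0 RPKM. In hrde-1 it measured 44.8, 35.8 and 37.6 RPKM before and 16.8, 25.1 and 31.3 RPKM after, which was not called (-0.70 ± 0.22, adjusted p = 0.10). The NHGs AC8.4 and AC8.11 have the same value in every library (-1.09 ± 0.21), as have AC8.3 and AC8.10 (-0.74 ± 0.17, not called), and each such pair is 1 measurement. Counted that way, 14 of 30 tested NHGs were lower (46.7%, against 1.53% of all) with the same median, and the lower genes were 99.

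A second cluster of lower genes lies on chromosome II (2144292 to 2163832), where C40A11.6, C40A11.7, C40A11.8 and C33C12.11 were called. C40A11.7 measured 795, 774 and 659 RPKM at 15C in hrde-1, 644, 419, 165, 60.9, 35.8 and 12.8 RPKM at 23 °C and 25.1, 39.7 and 69.5 RPKM at p15C. WT also fell, from 66, 104 and 87.8 to 25.8, 41.9 and 46.9 RPKM, and the genotypes overlapped after the return. No other gene was called for a fall in both genotypes and also for the difference (-2.97 ± 0.45, adjusted p = 0.0033). With all 24 libraries in the fit the adjusted p of C40A11.7 was 0.32. C40A11.6 went from 143, 148 and 133 to 6.66, 13.6 and 22.9 RPKM in hrde-1 (difference -3.01 ± 0.56), and C40A11.8 from 213, 268 and 254 to 52.9, 51.8 and 67.5 RPKM (-1.26 ± 0.20). C40A11.8 also fell in WT, from 132, 135 and 141 to 67.15, 80.4 and 84.1 RPKM. That fall was under 2-fold (-0.81 ± 0.14, limma adjusted p = 0.0089) and so was not called.

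At several genes siRNA stood far above WT in the mutant before the heat and much of it was gone afterwards. K01G5.10 measured 221, 207 and 197 RPKM at 15C in hrde-1 and 34.9, 17.1 and 24.3 RPKM at p15C, while the 6 WT libraries stayed between 3.62 and 13.9 RPKM (difference -2.77 ± 0.56, adjusted p = 0.017). ZC328.3 went from 188, 159 and 149.7 to 30.3, 37.6 and 59.8 RPKM (difference -2.80 ± 0.41), and ZC84.7 from 140.4, 136 and 104 to 16.3, 11.9 and 17 RPKM (difference -2.73 ± 0.51) with WT between 1.8 and 5.82 RPKM and at the read floor before the heat. In all 3 the mutant remained above WT after the return. Y55F3AM.11 fell from 116, 162 and 101 to 13.7, 16.6 and 20.04 RPKM (-2.28 ± 0.38), while its neighbours in the same clone on IV, srx-12, a chemoreceptor gene, and znf-782, a zinc finger gene, were higher by 1.33 ± 0.35 (adjusted p = 0.064) and 1.09 ± 0.17 (adjusted p = 0.0045). srx-12 lost the call in 8 of the 12 fits with 1 library left out, with adjusted p up to 0.15, and znf-782 in 1, where its difference was 0.99.

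In a smaller set it was WT that changed. rft-1, a riboflavin transporter gene (chromosome V, 4438932 to 4443223), fell in WT from 178, 129 and 151 to 19.1, 39.8 and 26 RPKM. In hrde-1 it was even at 335, 318 and 310.0 RPKM before and 332, 314 and 311 RPKM after (difference 2.43 ± 0.29, adjusted p = 0.00056). nhr-64, a nuclear hormone receptor gene, fell in WT from 175, 128 and 136 to 33.7, 46.3 and 27.8 RPKM and measured 445, 334 and 339.9 RPKM before and 511, 497 and 457 RPKM after in hrde-1 (difference 2.41 ± 0.26, adjusted p = 0.00029). fat-2 followed the same course in WT, from 142, 76.3 and 97.7 to 28.2, 33.8 and 59.6 RPKM, and measured 227, 148 and 177 RPKM before and 287, 354 and 335 RPKM after in hrde-1 (difference 2.22 ± 0.39).

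The opposite case, a rise in WT alone, was largest at dot-1.3, a homolog of the H3K79 methyltransferase DOT1 on X. WT measured 3.62, 2.46 and 5.68 RPKM before and 45.2, 23.6 and 39.6 RPKM after, a change of 2.92 ± 0.34. hrde-1 measured 30.1, 48.2 and 64.9 RPKM before and 33, 26.6 and 34.4 RPKM after, so that the genotypes did not overlap before the heat and did after it (difference -3.45 ± 0.48, adjusted p = 0.0018). C24A11.1 rose in WT from 2.83, 7.69 and 5.9 to 31.6, 21.8 and 33.1 RPKM (difference -2.60 ± 0.59), and K08H2.5 from 8.47, 17.3 and 19.9 to 76.5, 61.2 and 62.9 RPKM (difference -2.56 ± 0.55). WT_15C was the shallowest of the 4 groups, and 1 read per kilobase is 1.99, 2.71 and 2.08 RPKM in its libraries. The WT values of dot-1.3 and C24A11.1 before the heat are thus near the read floor, and the size of their rise is uncertain. In hrde-1 before the heat C24A11.1 measured 34.1, 52.9 and 80.99 RPKM and K08H2.5 17.6, 41.8 and 59.3 RPKM. siRNA of spermatogenesis genes also rose in WT: over 53 tested markers the median lasting change was 1.08 in WT and 0.60 in hrde-1. The lasting change in hrde-1 was -0.53 at dot-1.3, -0.33 at C24A11.1 and -0.42 at K08H2.5. The summed siRNA of the markers was 841, 1355 and 1362 RPKM in WT before the heat, 4018 RPKM at WT 23C-G2, the highest WT library, and 2300.1, 1751 and 2537 RPKM after it. In hrde-1 the sum was 1227, 2739 and 4567 RPKM at 15C-G1 to G3 and 3491, 3072 and 4795 RPKM at p15C-G1 to G3. Over 15C-G1 to G3 in hrde-1, dot-1.3, C24A11.1 and K08H2.5 were likewise higher in each generation than in the one before. C24A11.1 and K08H2.5 were also highest in WT at 23C-G2, with 68.3 and 99.7 RPKM, and dot-1.3, which reached 39.2 RPKM there, was highest at p15C-G1. The part of these markers in the differences was not tested. C24A11.1 and K08H2.5 missed the call, at adjusted p of 0.14 and 0.10, when p15C-G1 was left out in both genotypes. meg-4, a germ granule component, rose in WT from 16.4, 20.7 and 17.1 to 71.7, 54 and 40.4 RPKM and was even in hrde-1 at 7.01, 5.87 and 6.78 before and 6.23, 7.46 and 6.22 RPKM after. Its difference of -1.52 ± 0.41 had an adjusted p of 0.072, which was 0.35 without p15C-G1 in both genotypes, and it lost the call in 8 of the 12 fits with 1 library left out. math-31, a MATH domain gene, rose in WT from 56.3, 68.1 and 32.7 to 204, 142 and 103 RPKM and was even in the mutant (difference -1.49 ± 0.37, adjusted p = 0.051).

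At 6 called genes each genotype passed its own test, in opposite directions. lgc-30, a ligand-gated ion channel gene, rose in hrde-1 from 34, 28.4 and 35.9 to 198, 124 and 112 RPKM and fell in WT from 43.8, 28.9 and 52.3 to 15.6, 14.5 and 22.5 RPKM (difference 3.26 ± 0.37, adjusted p = 0.00036). Y53G8AR.1 started level, at 19.2, 45.5 and 26.9 RPKM in hrde-1 and 24.3, 36.3 and 27.9 RPKM in WT, and parted to 106, 83.8 and 77.5 against 10.4, 10.5 and 3.79 RPKM (difference 3.40 ± 0.52, adjusted p = 0.0033). At both, the genotypes overlapped before the heat and not after it. W02A2.8 fell in hrde-1 from 103, 115 and 218 to 55.3, 32.5 and 53.9 RPKM and rose in WT from 15.2, 34.4 and 15.9 to 61, 68.3 and 59.3 RPKM (difference -3.14 ± 0.47), and W09C5.9 behaved alike (-3.18 ± 0.59). The remaining 2, named after their values were seen, were dyf-3, a gene of sensory cilia (2.53 ± 0.39), and K01C8.2 (-2.66 ± 0.52).

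At 4 called genes a rise of siRNA passed the test in both genotypes and was larger in hrde-1. T11F9.19 went from 28.5, 63.1 and 49.3 to 811, 558 and 462 RPKM in hrde-1 and from 8.72, 11.9 and 6.08 to 17.5, 35 and 13.6 RPKM in WT (difference 2.55 ± 0.52, adjusted p = 0.018). dbd-8 had the largest rise in WT of the 4, from 22.3, 10.6 and 10.5 to 169.9, 105 and 61 RPKM, and in hrde-1 it went from 2.52, 4.4 and 0.73 to 206, 119 and 90.8 RPKM. Its difference of 2.53 ± 0.68 had an adjusted p of 0.073, and it lost the call with a pseudocount of 10 RPKM (adjusted p = 0.24) and in 6 of the 12 fits with 1 library left out (up to 0.17). W03G1.2 rose from 10.5, 16.3 and 10.2 to 267, 205 and 201 RPKM in hrde-1 (difference 2.21 ± 0.41), but WT was at the read floor before the heat, and with the floor subtracted the difference was 0.98 with an adjusted p of 0.30.

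The siRNAs that match genes of the siRNA machinery are given beside the shares over all tested genes, 3.38% called and 13.3% at an unadjusted p under 0.05; with lists this short, a count of 0 calls is near that share. Of the tested genes, 0 of 17 in nuclear RNAi and heritable silencing, 0 of 13 Argonautes, 0 of 25 RNA-dependent RNA polymerase, mutator and dicer complex genes and 0 of 25 heterochromatin and histone methylation genes were called, with medians of -0.14, -0.13, -0.16 and -0.21, and limma gave an unadjusted p under 0.05 at 1, 3, 3 and 1 of them (5.88%, 23.1%, 12.0% and 4.00%). Among 12 heat shock genes the count was also 0 (3 at that unadjusted p, 25%) and the median -0.29. Of 20 loci that give siRNAs of the ERGO-1 Argonaute class, 0 were called and the median was -0.39, but 9 were at that unadjusted p, 45% against 13.3% of all tested genes. None of these 9 met both parts of the call. Among 13 P granule genes, which build germ granules beside the nucleus, meg-4 was the 1 call. Of the 2 temperature controls used by the study, hsp-16.48 and fat-7 were at 8.14 and 2.14 RPKM on average and were not tested.

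Counts in gene families were small, and most of these lists would hold 0 to 2 calls at the 3.38% of all tested genes. Of 29 nuclear hormone receptor genes, nhr-64 was higher and nhr-10 lower (6.90%). nhr-10 fell in hrde-1 from 92.3, 86.5 and 94.9 to 15, 18.6 and 20.6 RPKM and stayed level in WT at 32.2, 24.6 and 31 before and 28.8, 28.6 and 28.2 RPKM after (difference -2.26 ± 0.23, adjusted p = 0.00019). At 23 °C both genotypes were lower, at 6.99 to 17.6 RPKM in WT and 5.61 to 23 RPKM in hrde-1. The 23 RPKM was at 23C-G1, and 23C-G2 to G6 of the mutant (5.61 to 12.9 RPKM) lay below all its libraries after the return. Of 12 detoxification enzyme genes, gst-5, a glutathione S-transferase, was higher (2.27 ± 0.53, adjusted p = 0.036) and gst-43 lower (-1.61 ± 0.40, adjusted p = 0.051). gst-43 lost the call in 6 of the 12 fits with 1 library left out (adjusted p up to 0.14), and gst-5 in 1. Of 11 chemoreceptor genes, srx-12 was higher and srsx-25 lower, the latter going from 272, 239.7 and 224 to 179, 168 and 214 RPKM in hrde-1 and from 4.26, 2.9 and 6.68 to 12.8, 8.22 and 10.5 RPKM in WT (-1.47 ± 0.33). Of 32 MATH and BATH genes, bath-35 (-1.72 ± 0.48, adjusted p = 0.084) and math-31 were lower (6.25%). bath-35 lost the call in 9 of the 12 fits with 1 library left out (adjusted p up to 0.20) and math-31 in 5 (up to 0.11). Of 63 histone genes, his-41 was lower (1.59%; -1.16 ± 0.27, adjusted p = 0.038, lost in 2 of 12 such fits), and of 74 ribosomal protein genes, 8 C-type lectin genes, 18 kinesin and dynein genes and 3 insulin-like peptide genes none was called (6, 2, 4 and 0 at an unadjusted p under 0.05, which is 8.11%, 25%, 22.2% and 0% beside 13.3% of all).

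Lists that mark the cell types of a whole animal are short, and at 3.38% of all tested genes 0 to 2 calls would fall in each. Of 53 tested spermatogenesis genes limma called 0, also at an unadjusted p under 0.05, but the median difference was -0.47, with a median lasting change of 1.08 in WT and 0.60 in hrde-1. Their summed siRNA was 841 to 1362 RPKM in WT_15C and 1751 to 2537 RPKM in WT_p15C. In hrde-1_15C it was 1227, 2739 and 4567 RPKM at G1, G2 and G3, and in hrde-1_p15C 3072 to 4795 RPKM, so that mutant libraries before and after the heat overlapped. The part of this in the called differences was not tested. Of 22 oocyte and early embryo genes and 25 mitotic and meiotic germline genes 0 were called (medians -0.08 and -0.24, with 2 and 2 genes at that unadjusted p). Of 25 epidermis and cuticle genes and 3 muscle genes 0 were called (6 and 0 at that p, or 24% and 0%, beside 13.3% of all), and of 19 intestine markers 0 reached 20 RPKM. Among 10 neuronal genes unc-119, which acts in trafficking to cilia and axons, was higher: it went from 60.7, 61.5 and 60.9 to 166, 169.8 and 184 RPKM in hrde-1 and from 31.2, 21.2 and 27.1 to 26.8, 36.3 and 24.3 RPKM in WT (1.36 ± 0.24, adjusted p = 0.0086).

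The called genes were spread over the autosomes but not evenly over X. Of 117 higher genes with a position in WBcel235, 0 were on X, and of 96 lower genes 12 were (12.5%), where X holds 4.61% of the 6352 tested genes with a position. The higher genes included 33 on chromosome III (28.2%, against 21.2% of tested genes) and the lower genes 23 on V (23.96%, against 15.5%). Called genes also tended to lie near others called the same way: 20 of the 117 higher genes had another within 20 kb (6.94% of all tested genes lay that near to a higher gene), and 14 of the 96 lower genes had another lower gene there (4.96% of all). With AC8.4 and AC8.11, which have the same values and lie on X, counted once, 12 of 95 lower genes had a lower neighbour and 11 were on X (11.6%). Besides the ZK228, fbxa and C40A11 groups these included F41G4.5 with F41G4.7, C18D4.4 with C18D4.6, ZC15.1 with ZC15.3, and gst-5 with R03D7.2. These positions are of WBcel235 and not of the WS190 release the authors aligned to, and neighbours with similar sequence may share reads.

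Among the genes that passed in neither genotype alone, 26 higher and 17 lower, small changes of opposite sign added up. K11D2.1 went in hrde-1 from 155, 123 and 147 to 97, 81.3 and 68.2 RPKM and in WT from 31.9, 19.7 and 24.2 to 52.3, 44.6 and 40.7 RPKM, under 2-fold in both (difference -1.64 ± 0.27, adjusted p = 0.0057). Y71H2AL.2 went the other way (1.60 ± 0.35), and ZK355.2 (-1.51 ± 0.41, adjusted p = 0.076) and gst-43 were lower, the former losing the call in 9 of the 12 fits with 1 library left out (adjusted p up to 0.18). At the filter, let-363 and C25G4.2 were just inside with means of 20.01 and 20.02 RPKM, and clec-12 and Y55F3AM.5 just outside with 19.99 RPKM each.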

How the data were processed

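Small RNA was sequenced in 24 libraries of whole animals. The authors aligned reads to the WS190 mRNA database with Bowtie 0.12.7, kept perfect antisense alignments and deposited RPKM, 1 value per transcript and library (20911 transcripts). How they counted reads with several matches is not stated in those sources. Of low values, 92.5% lay within 0.1 of a whole step, so that 1 step was taken as 1 read. Depths are therefore inferred, and limits cover counting error only.

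The transcript with the highest mean was kept per gene. log2(RPKM + 1) of the 12 libraries at 15C and p15C was fitted with limma 3.58.1 in R 4.3.3 (4 group means, lmFit, contrasts, eBayes with trend, two-sided moderated test, Benjamini-Hochberg adjustment over 6512 genes). A fold is on this scale and understates changes of low genes. Early and late 23C were fitted alike on the other 12 libraries. No count test was used since the values are RPKM. The fit was tested on simulated data. Symbols and positions came from WBcel235 tables (a position for 97.0% of genes). Plots used python 3.11.15 and matplotlib 3.10.9.

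The members and lists were chosen with earlier results of these data known. Lists are described by counts and medians only. Named genes were hrde-1, the temperature controls and cumulative NHGs, the 15 largest differences per direction, up to 4 called members per list and 4 per class of called genes, and called genes of clones with at least 3, 66 in all. Any other gene was named after its values were seen. Alternatives were the pseudocount, the filter, scaling, read floor, fit, trend, replicate block, p15C-G1, transcripts, identical genes and each library left out.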

Additional observations from a re-analysis of the deposited data

Results flagged for a closer look

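The lasting change differed between genotypes by the interaction test at 120 genes higher and 100 genes lower in hrde-1 relative to WT. At 6 of them each genotype passed its own test with opposite sign: the difference was 2.53 at dyf-3, 3.26 at lgc-30 and 3.40 at Y53G8AR.1, and -2.66 at K01C8.2, -3.14 at W02A2.8 and -3.18 at W09C5.9. Over the 23 °C generations, the change from early to late differed between genotypes at dlk-1 (1.42) and fat-2 (1.78).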

How the results depend on the processing

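The counts of 120 higher and 100 lower genes stayed within 1.5 times under every alternative run: they were lowest without p15C-G1 in both genotypes (81 and 67) and ranged from 90 to 138 and from 83 to 118 with 1 library left out. Of the 120 higher and 100 lower genes, 77 and 63 kept the call without p15C-G1 in both genotypes. With median-ratio scaling the counts were 137 and 77. With the generation number as a replicate block they were 127 and 113, and with WT and hrde-1 of a generation as a pair 139 and 125. Deviations of such pairs correlated at r = 0.09 to 0.41 across genes, over 0.1 in 4 of 6 pairs. Between WT and hrde-1 of unlike generations in a phase, r ran from -0.39 to 0.22, and most were negative. WT and hrde-1 of a generation thus shared part of their deviations, which the main fit, without pairs, does not use. Of 66 named genes 13 lost the call without p15C-G1 in both genotypes, 8 with the read floor subtracted, 7 with all 24 libraries fitted, 5 with median-ratio scaling, 4 with either looser filter, 3 with a pseudocount of 10 RPKM and 1 without trend or with genotypes paired, and 0 changed sign. With 1 library left out, bath-35, ZK355.2, srx-12, meg-4, dbd-8, gst-43, gplb-1, math-31, his-41, gst-5 and znf-782 lost it in at least 1 of 12 fits. The WT counts moved to 116 higher with a pseudocount of 10 RPKM, 113 lower with a filter at 1 RPKM or none, and 66 higher and 36 lower without p15C-G1, and ranged from 74 to 256 and 32 to 79 with 1 library left out. The hrde-1 counts moved to 255 and 254 higher with a filter at 1 RPKM or none, and ranged from 126 to 227 and 78 to 180. For the early to late difference at 23 °C, 0 genes were higher with a pseudocount of 10, either filter, median-ratio scaling or no trend, and 1 with the block. Of the lower genes there was 1 with the read floor subtracted or no trend, and ranges with 1 library left out were 0 to 10 higher and 0 to 9 lower. The causes were not tested. At 16 called genes a whole group was at the read floor, so that depth sets only a bound there.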
